A study of Mus musculus with 6 samples.

Results

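Tight junctions seal the space between neighbouring epithelial cells near their apical border. 9 genes of this junction, Cldn3, Cldn4, Cldn6, Cldn7, Ocln, F11r, Tjp1, Tjp3 and Cgn, were followed among the 52870 genes measured in each library. They were chosen by name, with earlier results of these data known. All 9 were found in the files through the GENCODE M21 annotation of mouse genome build GRCm38. RNA sequencing measured their transcripts in mouse embryonic stem cells of strain C57BL/6, the pluripotent cells grown from the early embryo. The control group was 3 libraries from Rbbp4F/F cells, the control of the series title, and the other group was 3 libraries from Rbbp4-/- cells, titled Rbbp4KO and named the knockout below. The product of Rbbp4 is a histone-binding subunit shared by several chromatin complexes, and the comparison asked which transcripts differ when it is deleted. The labels do not name the deleted exons, how the deletion was made, or whether replicates are separate cultures or clones. The p-values therefore measure the spread between these libraries, which may be technical.

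The strands of the junction are built by claudins, small proteins that cross the membrane 4 times and set how tight or leaky the seal is, together with occludin and other MARVEL-domain proteins. Junctional adhesion molecules sit beside them, and ZO proteins and cingulin form the plaque inside the cell that ties the strands to actin. In the mouse embryo the first such seal forms in the trophectoderm, the outer layer of the blastocyst from which the trophoblast arises, and several claudins are also made by pluripotent cells.

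Levels are in FPKM, which scales fragments to the length of the transcript and the size of the library, so levels of different genes can be compared per length. Fold changes are differences of mean log2(FPKM + 1), knockout minus control, from limma fitted to the 13579 genes that reached 1 FPKM in 3 or more libraries. A gene was called higher or lower at a Benjamini-Hochberg adjusted p of at most 0.05 over all those genes. Means are printed ± SD over n = 3 libraries.

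The libraries held an estimated 25400000 to 28900000 fragments each, at which a single fragment adds 0.0173 to 0.0197 FPKM to a 2 kb transcript. Rbbp4 had 58.5, 57.0 and 61.8 FPKM in control replicates 1 to 3 and 21.3, 12.7 and 11.1 FPKM in knockout replicates 1 to 3, a log2 fold change of −1.96. Knockout replicate 1, which retained more Rbbp4 transcript than the other knockout libraries, stood apart from them on the second principal component of all tested genes (36 against −7 and −24.2). Of 8 markers of embryonic stem cells 7 were lower, beside 22.5% lower among all tested genes. The summed level of all 8 was 4705 to 4855 FPKM in Rbbp4F/F cells and 1390 to 2175 FPKM in Rbbp4KO cells. Of 10 trophoblast markers 8 were higher, beside 36.7% higher among all tested genes. 2 of the 8, Cdx2 and Gata3, passed the filter through the knockout libraries alone. The sum of all 10 was 122 to 184 FPKM in Rbbp4F/F cells against 2220 to 4004 FPKM in Rbbp4KO cells. Most of the trophoblast sum in both groups came from the keratin genes Krt8 (means of 65.8 and 1586 FPKM) and Krt18 (55.5 and 1575 FPKM). Eomes (2.90 and 2.88 FPKM) and Elf5 (1.29 and 1.99 FPKM) were not called. Primitive endoderm markers summed to 1.54 to 3.25 FPKM and 7.71 to 8.66 FPKM. Of 9 fibroblast markers, 8 stayed below 1 FPKM in every library and the other, Thy1, fell. Of 6 endothelial markers Pecam1 (39.1 and 26.9 FPKM), Tek (13.6 and 5.503 FPKM) and Kdr (3.39 and 1.58 FPKM) were tested and fell, while 3 stayed below 1 FPKM in every library, among them Cdh5 at up to 0.08 FPKM and Emcn, listed at 0 throughout. Exons of Gm26722 and Sync on the other strand cover 9.1% and 8.9% of Rbbp4.

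All 9 junction genes passed the filter in both groups, 8 were higher in Rbbp4KO cells and 1, Tjp3, was lower. Among all tested genes 36.7% were higher and 22.5% were lower, and 59.1% were called in either direction. In all 9 genes the libraries of both groups did not overlap, as in 66.8% of all tested genes. The median log2 fold change of the 9 genes was 1.17, against 0.17 over all tested genes. Because the genes were chosen with earlier results known, this contrast is a description only. Each of the 9 kept its direction under the 15 alternative treatments of the data. Some of these, a changed filter, a replicate block and a 1.5-fold threshold, leave the fold change as it was, so direction could not change there. Without knockout replicate 1 the counts were again 8 higher and 1 lower. The trophoblast and stem cell markers moved between the same groups, and their part in these differences was not tested. In RNA from whole cultures a change in the number of cells that express a gene and a change in RNA per cell cannot be told apart.

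**Figure D1:**
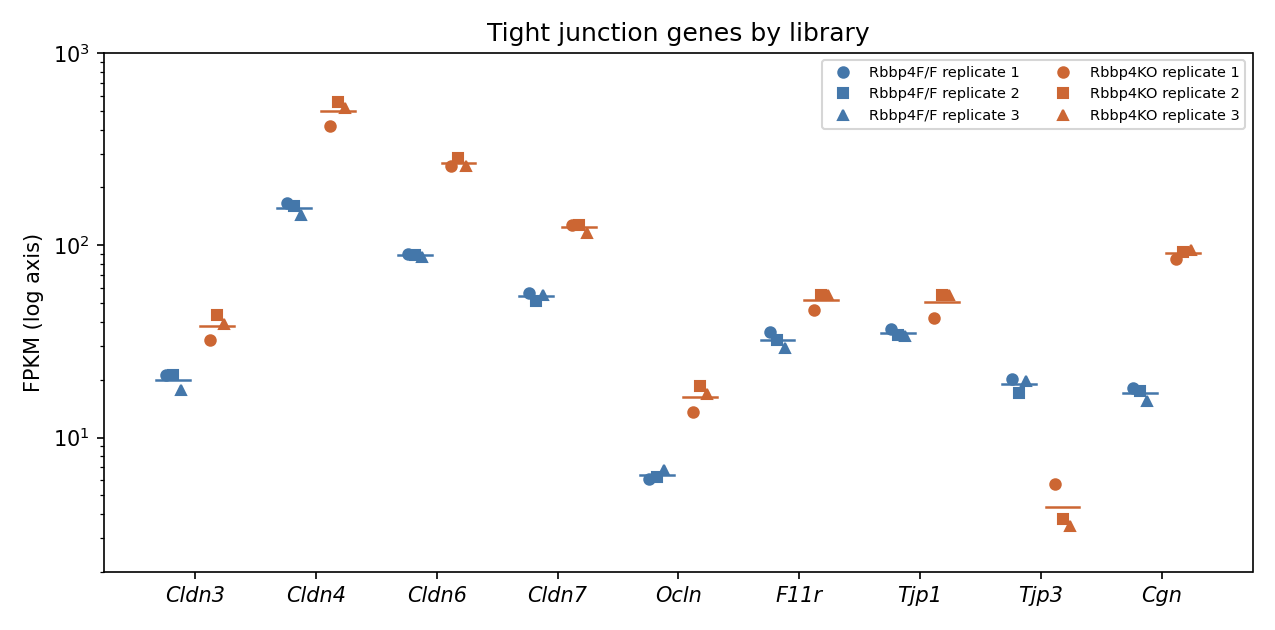
FPKM of the 9 genes in each library on a log axis, with Rbbp4F/F libraries in blue, Rbbp4KO libraries in orange, a marker shape per replicate and a line at each group mean (n = 3). The knockout points lie above the control points for every gene but Tjp3, where they lie below.

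The bases upstream of 4 of the genes are shown here because these genes carry the contrasts described below: Cldn4 and Cldn3 are neighbours that rose together, Cgn rose most and Tjp3 is the member that fell. They are from the RefSeq promoter table (build GRCm38.p6), end just before the annotated gene and read 5′ to 3′ along the gene's own strand. Capitals mark letters searched on both strands. These were GGGCGG (the GC box), CAGGTG (the E-box read by Snail and Zeb factors), AACCGGTT and its looser form AACNNGTT (letters of Grainyhead-like factors), TATAAA (the TATA box) and TGANTCA (read by AP-1). AACCGGTT is a case of AACNNGTT, and the AP-1 letters were added after the sequences were seen. The windows are chr5:134946935-134947184 (minus strand) for Cldn4, chr5:134985964-134986213 (plus strand) for Cldn3, chr3:94786493-94786732 (minus strand) for Cgn and chr10:81291582-81291831 (minus strand) for Tjp3.
Cldn4: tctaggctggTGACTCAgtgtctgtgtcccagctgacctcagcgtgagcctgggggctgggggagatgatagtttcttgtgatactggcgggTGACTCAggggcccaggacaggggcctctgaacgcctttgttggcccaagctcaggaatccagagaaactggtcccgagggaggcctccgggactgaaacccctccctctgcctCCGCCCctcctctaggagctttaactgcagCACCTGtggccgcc
Cldn3: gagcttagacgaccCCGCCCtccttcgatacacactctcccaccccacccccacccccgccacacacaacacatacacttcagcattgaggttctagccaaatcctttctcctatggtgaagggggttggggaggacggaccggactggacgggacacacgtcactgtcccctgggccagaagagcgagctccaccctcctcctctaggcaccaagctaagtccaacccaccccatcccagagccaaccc
Cgn: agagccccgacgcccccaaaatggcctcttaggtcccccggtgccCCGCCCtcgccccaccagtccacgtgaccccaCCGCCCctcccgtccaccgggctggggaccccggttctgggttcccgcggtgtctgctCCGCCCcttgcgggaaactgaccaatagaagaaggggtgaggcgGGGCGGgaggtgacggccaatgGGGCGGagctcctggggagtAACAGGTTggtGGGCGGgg
Tjp3: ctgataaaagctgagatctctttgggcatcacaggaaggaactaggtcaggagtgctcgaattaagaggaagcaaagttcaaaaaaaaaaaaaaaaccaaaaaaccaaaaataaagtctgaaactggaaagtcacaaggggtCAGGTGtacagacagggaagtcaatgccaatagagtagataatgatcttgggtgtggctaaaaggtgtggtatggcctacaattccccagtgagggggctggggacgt

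The Cldn4 window holds the AP-1 letters 2 times, the GC box 1 time and the Snail and Zeb letters 1 time, close to the start. Its neighbour Cldn3 shows a single GC box and none of the others. The Cgn window, printed without the 10 bases that lie inside the annotated gene, carries 6 GC boxes and 1 match to the looser Grainyhead-like letters. Tjp3 has the Snail and Zeb letters and no GC box.

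Among 32851 windows of 250 bases before RefSeq starts, GGGCGG is present in 32.7%, CAGGTG in 17.2%, TATAAA in 12.4%, TGANTCA in 6.75%, AACNNGTT in 3.64% and AACCGGTT in 0.116%. The 9 genes have 12 such windows. GGGCGG is in 9 of them, covering every gene but Tjp3, and CAGGTG is in 7, covering F11r, Cldn4, Tjp3, Cldn7, Ocln and Cldn6. TGANTCA is in 2, those of F11r and Cldn4. None of the 12 holds TATAAA or AACCGGTT. These matches describe letters only and say nothing about binding in these cells.

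Of the claudins, Cldn4, which makes a barrier-forming claudin, had the highest level of the 9 genes in both groups. Cldn4 (ENSMUSG00000047501, GRCm38 chromosome 5, 134945119 to 134946934, minus strand, 1 exonic block) measured 165, 159 and 144 FPKM in control replicates 1 to 3 and 417, 556 and 518 FPKM in knockout replicates 1 to 3. The groups did not overlap, and knockout replicate 1 was the lowest of its group. The mean rose from 156 ± 10.8 to 497 ± 71.8 FPKM, 3.18-fold, with a log2 fold change of 1.65 ± 0.12 (SE, adjusted p = 8.39e-05 by limma).

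Cldn6, a claudin of embryonic epithelia, was second in level. Cldn6 (ENSMUSG00000023906, chromosome 17, 23679249 to 23682446, plus strand, 3 exonic blocks) measured 90.6, 88.7 and 87.3 FPKM in Rbbp4F/F cells and 259.7, 285 and 258.5 FPKM in Rbbp4KO cells. Both groups were tight and far apart. The log2 fold change was 1.58 ± 0.07 (SE, adjusted p = 2.44e-05 by limma), with the smallest SE of the 9 genes.

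Cldn7, a claudin with a role along the lateral membrane as well as in the junction, had 56.5, 51.4 and 55.3 FPKM in Rbbp4F/F cells and 127.9, 127.8 and 115.8 FPKM in Rbbp4KO cells (ENSMUSG00000018569, chromosome 11, 69964779 to 69967885, plus strand, 5 exonic blocks). Here knockout replicate 3, not replicate 1, was nearest the controls. Its mean rose from 54.4 ± 2.66 to 124 ± 6.96 FPKM, and the log2 fold change was 1.17 ± 0.08 (SE, adjusted p = 6.46e-05 by limma).

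Cldn3, which like Cldn4 encodes a receptor of Clostridium perfringens enterotoxin, rose least of the 4 claudins. Cldn3 (ENSMUSG00000070473, chromosome 5, 134986214 to 134987472, plus strand, 1 exonic block) measured 21.1, 21.03 and 17.7 FPKM in Rbbp4F/F cells and 32.3, 43.3 and 38.9 FPKM in Rbbp4KO cells. The lowest knockout library was replicate 1, still above all controls. The mean rose from 19.9 ± 1.97 to 38.2 ± 5.55 FPKM, with a log2 fold change of 0.90 ± 0.13 (SE, adjusted p = 0.00121 by limma). A test against a 1.5-fold change did not call it (limma adjusted p = 0.111). Exons of the antisense gene Wbscr25 cover 3.2% of its exonic length.

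Summed over the 23 claudin genes found in the files, the claudin transcript level was 353, 345 and 329 FPKM in Rbbp4F/F cells and 885, 1053 and 969.6 FPKM in Rbbp4KO cells. The 4 claudins above held 92.7% to 96.1% of this sum in every library, so the sum describes mainly them. The mean was 342 ± 12.2 FPKM in Rbbp4F/F cells and 969 ± 84.0 FPKM in Rbbp4KO cells, a ratio of 2.83, or 2.48 with median-ratio scaling. Cldn4 held 45.7% ± 1.54 of it in Rbbp4F/F cells and 51.1% ± 3.46 in Rbbp4KO cells, ranges that lay apart by little (43.9% to 46.9% against 47.1% to 53.4%). Cldn6 held 26.0% ± 0.488 and 27.7% ± 1.46, Cldn7 15.9% ± 0.966 and 12.8% ± 1.40, and Cldn3 5.82% ± 0.390 and 3.93% ± 0.244. The shares of Cldn7 and Cldn3 were lower in every knockout library than in every control library although their levels rose.

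**Figure D2:**
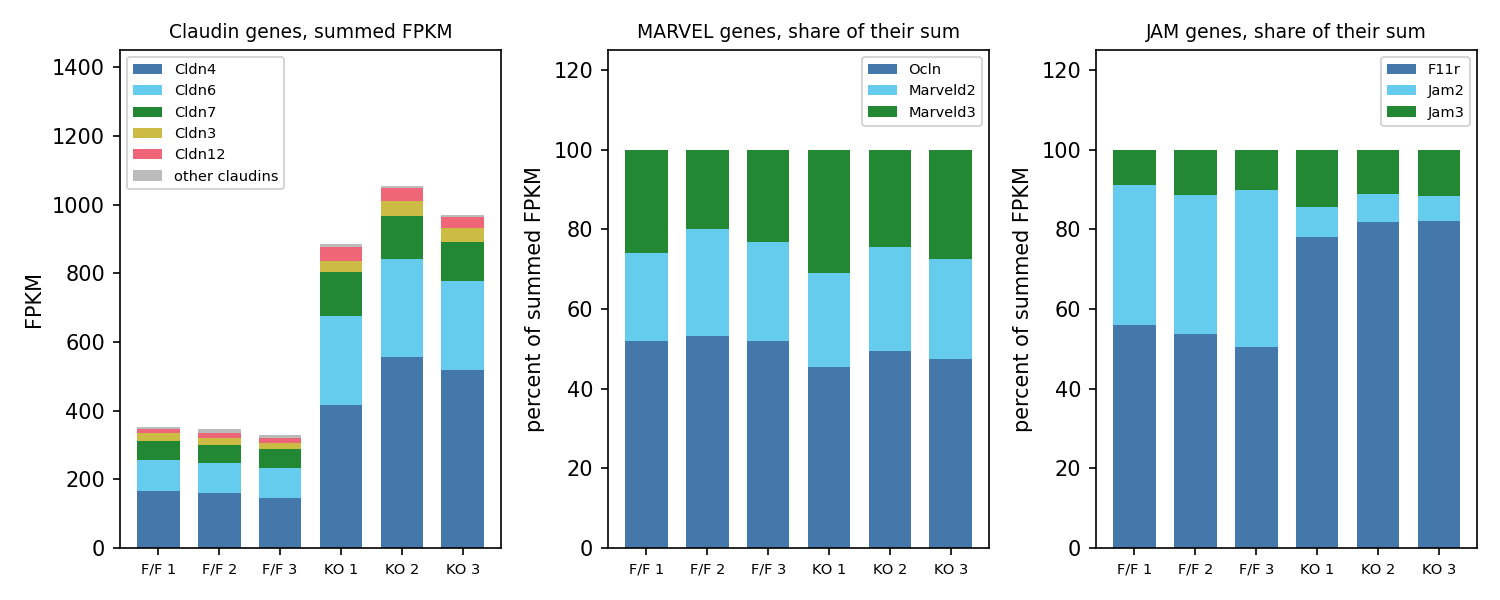
Left, FPKM of the claudin genes stacked by library. Middle and right, percent of the summed FPKM of the MARVEL genes (Ocln, Marveld2, Marveld3) and of the JAM genes (F11r, Jam2, Jam3) in each library. The claudin columns reach 329 to 353 in the Rbbp4F/F libraries and 885 to 1053 in the Rbbp4KO libraries. The Ocln share lies at 51.9% to 53.1% in the Rbbp4F/F libraries and at 45.5% to 49.5% in the Rbbp4KO libraries, and the Jam2 share shrinks.

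Other claudins moved in both directions at lower levels. Of 21 listed, 19 were matched in the files and 4 were tested. Cldn12, an atypical claudin, rose from 14.4 ± 1.71 to 35.7 ± 3.49 FPKM, with a log2 fold change of 1.25 ± 0.12 (SE, adjusted p = 2.24e-04 by limma). Cldn5, the main claudin of endothelial cells, had 3.29, 4.55 and 4.54 FPKM in Rbbp4F/F cells and 0.610, 0.320 and 0.550 FPKM in Rbbp4KO cells. It was the 1 claudin called lower, with a log2 fold change of −1.77 ± 0.16 (SE, adjusted p = 2.00e-04 by limma). The endothelial markers Pecam1, Tek and Kdr fell beside it, and the sum of all 6 was 55.4 to 57.1 FPKM in Rbbp4F/F cells and 32.4 to 35.7 FPKM in Rbbp4KO cells, with Cdh5 and Emcn at or near 0 in both groups. Their part in the Cldn5 difference was not tested.

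Cldn15, which forms cation channels, passed the filter through the knockout libraries alone, with 0, 0.1 and 0 FPKM in Rbbp4F/F cells and 2.97, 1.04 and 1.11 FPKM in Rbbp4KO cells. With median-ratio or upper-quartile scaling it fell below the filter and was not tested. A test against a 1.5-fold change did not call it (limma adjusted p = 0.0748). Cldn9 had 2.76 ± 0.420 and 2.26 ± 0.775 FPKM and was not called (limma adjusted p = 0.372). Cldn23 had 0.2, 0.15 and 0.05 FPKM in Rbbp4F/F cells and 0.740, 1.38 and 1.16 FPKM in Rbbp4KO cells. Too low for the filter, it was not tested. Cldn13, Cldn17, Cldn22 and Cldn24 were listed at 0 in all 6 libraries. Exons of Wwc2 on the other strand cover 100% of Cldn22. Whether counting used strand is not given, so the 0 of Cldn22 cannot be read as absence of its transcript.

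Occludin, the first membrane protein described in the tight junction, is encoded by Ocln (ENSMUSG00000021638, chromosome 13, 100496507 to 100552718, minus strand, 10 exonic blocks). Ocln had 6.12, 6.25 and 6.81 FPKM in Rbbp4F/F cells, the lowest level of the 9 genes in that group. The knockout libraries held 13.6, 18.5 and 16.9 FPKM of it, all above the controls. The mean rose from 6.39 ± 0.367 to 16.3 ± 2.53 FPKM, with a log2 fold change of 1.22 ± 0.14 (SE, adjusted p = 4.00e-04 by limma). The genes of both other MARVEL proteins of the junction rose as well. Marveld2, the gene of tricellulin at 3-cell contacts, had a log2 fold change of 1.25 ± 0.15 (SE, adjusted p = 5.89e-04 by limma), and Marveld3 1.45 (SE 0.13, limma adjusted p = 1.68e-04). Ocln held 52.3% ± 0.694 of the summed level of the 3 genes in Rbbp4F/F cells and 47.5% ± 2.05 in Rbbp4KO cells.

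F11r encodes JAM-A, an immunoglobulin-type adhesion molecule that recruits polarity proteins to young junctions. F11r (ENSMUSG00000038235, chromosome 1, 171437535 to 171464603, plus strand, 9 exonic blocks) measured 35.5, 32.0 and 29.2 FPKM in Rbbp4F/F cells and 45.8, 54.9 and 55.1 FPKM in Rbbp4KO cells. The groups were apart, with knockout replicate 1 closest to the controls. Its mean rose from 32.2 ± 3.15 to 51.9 ± 5.27 FPKM, with a log2 fold change of 0.67 ± 0.11 (SE, adjusted p = 0.00203 by limma). A test against a 1.5-fold change did not call it (limma adjusted p = 0.638).

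The related gene Jam2 went the other way. It had 22.2, 20.9 and 22.9 FPKM in Rbbp4F/F cells and 4.39, 4.81 and 4.33 FPKM in Rbbp4KO cells, a log2 fold change of −2.06 ± 0.10 (SE, adjusted p = 3.33e-05 by limma). The sum of F11r, Jam2 and Jam3 was 60.3 ± 2.73 FPKM in Rbbp4F/F cells and 64.3 ± 4.88 FPKM in Rbbp4KO cells, and its ranges overlapped (58.0 to 63.3 against 58.7 to 67.2). Within it the F11r share was 53.3% ± 2.85 and 80.6% ± 2.17, and the Jam2 share 36.5% ± 2.56 and 7.03% ± 0.530. These sums and shares of the JAM, MARVEL and cingulin genes were chosen after the values were seen.

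The scaffold genes Tjp1 and Tjp3 were called in opposite directions. Tjp1, the gene of ZO-1, the scaffold that binds claudin tails and actin (ENSMUSG00000030516, chromosome 7, 65296165 to 65527781, minus strand, 31 exonic blocks), measured 36.8, 34.2 and 33.5 FPKM in Rbbp4F/F cells and 41.9, 55.3 and 55.5 FPKM in Rbbp4KO cells. Knockout replicate 1 lay between the controls and the other knockout libraries. The mean rose from 34.9 ± 1.73 to 50.9 ± 7.77 FPKM, and the log2 fold change was 0.52 ± 0.12 (SE, adjusted p = 0.00942 by limma), the smallest of the 9. The Tjp1 call was lost after median-ratio scaling (0.33, adjusted p = 0.0549 by limma) and with upper-quartile values (0.26, limma adjusted p = 0.105).

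Tjp3, the gene of ZO-3, a scaffold found in epithelial junctions, was the member that fell (ENSMUSG00000034917, chromosome 10, 81273207 to 81291581, minus strand, 21 exonic blocks). It had 20.2, 17.1 and 19.7 FPKM in Rbbp4F/F cells and 5.74, 3.79 and 3.46 FPKM in Rbbp4KO cells. All knockout libraries lay below all controls, and replicate 1 was again nearest to them. The mean fell from 19.0 ± 1.63 to 4.33 ± 1.23 FPKM, 4.39-fold lower, with a log2 fold change of −1.93 ± 0.18 (SE, adjusted p = 1.89e-04 by limma). The exons of Apba3 on the other strand cover 1.1% of Tjp3, and Apba3 itself fell by 0.61 on the log2 scale (limma adjusted p = 0.0248).

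Cgn encodes cingulin, a plaque protein that links ZO-1 to the actomyosin and microtubule cytoskeletons, and it showed the largest change of the 9. Cgn (ENSMUSG00000068876, chromosome 3, 94760069 to 94786492, minus strand, 20 exonic blocks) measured 18.0, 17.4 and 15.4 FPKM in Rbbp4F/F cells and 84.9, 92.6 and 94.5 FPKM in Rbbp4KO cells. The lowest knockout library was several times the highest control. The mean rose from 16.9 ± 1.37 to 90.7 ± 5.11 FPKM, 5.35-fold, with a log2 fold change of 2.35 ± 0.09 (SE, adjusted p = 1.49e-05 by limma). Its paralog Cgnl1, the gene of paracingulin, had 4.16 ± 1.01 and 4.37 ± 1.62 FPKM and was not called (limma adjusted p = 0.943). Cgn held 80.3% ± 4.96 of the sum of both in Rbbp4F/F cells and 95.5% ± 1.45 in Rbbp4KO cells.

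In the controls the order by mean level was Cldn4, Cldn6, Cldn7, Tjp1, F11r, Cldn3, Tjp3, Cgn and Ocln. The ranges of Tjp1 and F11r overlapped, as did those of Cldn3 with Tjp3 and of Tjp3 with Cgn. All other neighbours in that order lay apart. In the knockout libraries the order was Cldn4, Cldn6, Cldn7, Cgn, F11r, Tjp1, Cldn3, Ocln and Tjp3, with overlapping ranges between F11r and Tjp1 and between Tjp1 and Cldn3. The 3 most abundant claudins kept their ranks, while Cgn moved from rank 8 to rank 4 and Tjp3 from rank 7 to the last.

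**Figure D3:**
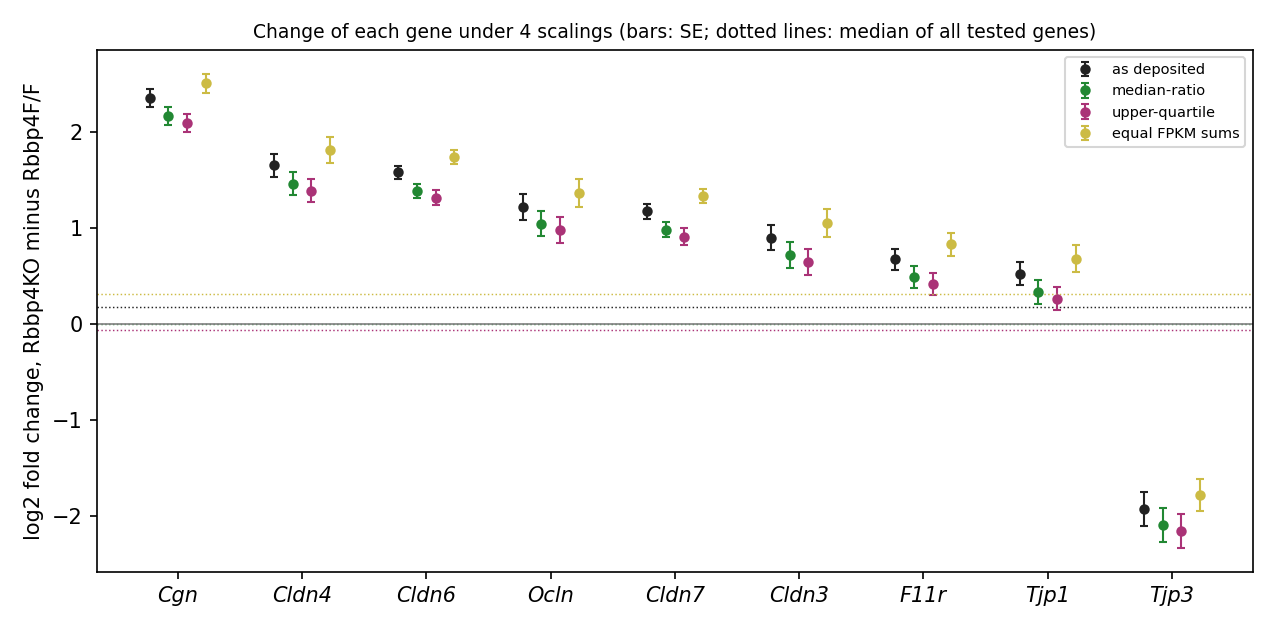
Log2 fold change ± SE of each gene (n = 3 per group) with the values as deposited and after median-ratio, upper-quartile and equal-sum scaling between libraries; dotted lines give the median of all tested genes in each scaling. Cgn stays highest, at up to 2.51, Tjp3 lies at −2.16 to −1.79, and Tjp1, at 0.26 to 0.68, comes nearest to 0.

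Knockout replicate 1 was the knockout library nearest the control mean in 7 of the 9 genes, the exceptions being Cldn6 and Cldn7, where replicate 3 was. Among the 8029 genes called in the whole table, replicate 1 was nearest in 54.6%, replicate 2 in 18.6% and replicate 3 in 26.3%. These counts were chosen after the values were seen. Without replicate 1 the log2 fold changes were 1.77 for Cldn4, 1.34 for Ocln, 0.65 for Tjp1 and −2.11 for Tjp3, all called (limma adjusted p = 5.22e-04 for Tjp1).

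In 58 further genes of the junction and its regulators that passed the filter, of 86 listed and 84 matched, 32 were higher, 11 were lower and 15 were not called, with a median log2 fold change of 0.55. Of the 32, Cldn15, Esam and Cdx2 passed the filter through the knockout libraries alone, so they could not have come out lower. Over all tested genes 36.7% were higher and 22.5% lower, with a median of 0.17. The counts of higher and lower genes were 28 and 15 under median-ratio and 26 and 16 under upper-quartile scaling, 35 and 7 with equal FPKM sums, 35 and 8 with totals that leave out the 20 most abundant genes, and 32 and 7 without control replicate 1. Of 10 other membrane protein genes tested, 8 rose and 1, Jam2, fell. Cxadr, the gene of the coxsackievirus and adenovirus receptor, rose from 4.69 ± 0.554 to 16.2 ± 0.673 FPKM, with a log2 fold change of 1.60, although exons of Btg3 on the other strand cover 9.4% of it. Lsr, which encodes angulin-1 of tricellular contacts, rose from 36.4 ± 3.14 to 85.9 ± 5.27 FPKM, with 43.6% of its exonic length covered by antisense Gm4673. The calls of Jam3 (0.33) and Esam (0.55), 2 of the 8, were lost with upper-quartile scaling. That of Jam3 also went after median-ratio scaling (0.16, adjusted p = 0.282 by limma), without a filter (limma adjusted p = 0.0695) and with each library left out in turn, and exons of Gm48796 on the other strand cover 36.2% of Jam3. Esam, which passed the filter through the knockout libraries alone, also lost its call without control replicate 1 or 3 or knockout replicate 3. Ildr1 was the 1 not called, at 24.5 ± 1.75 and 23.7 ± 5.72 FPKM, but it was called lower without knockout replicate 1 (−0.25, limma adjusted p = 0.0396).

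Of 17 tested scaffold and polarity genes, 10 rose and 4 fell, beside 36.7% higher and 22.5% lower among all tested genes. Among the 10, Mpp5 lost its call without control replicate 2 or knockout replicate 2. Patj, whose product joins the Crumbs complex to ZO-3 and claudins, rose from 9.67 ± 0.501 to 26.1 ± 1.98 FPKM. Amotl2, an angiomotin-like actin and polarity protein gene, rose from 33.9 ± 3.21 to 117 ± 17.8 FPKM, and Pard6b, a subunit gene of the Par polarity complex, from 14.4 ± 1.74 to 47.6 ± 6.98 FPKM. The largest fall in this list was that of Ybx3, which encodes the ZO-1 partner ZONAB, from 370.1 ± 2.48 to 236 ± 19.03 FPKM (log2 fold change −0.65). Sympk (−0.40), also a plaque and RNA-processing protein gene, and the Par genes Pard6g (−0.31) and Pard6a (−0.44) were lower too, but these 3 calls were lost with equal FPKM sums and without control replicate 1. The Par genes also lost theirs without control replicate 2 or knockout replicate 2 or 3, and Pard6g without control replicate 3. Cgnl1, Magi1 and Mpdz were not called.

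**Figure D4:**
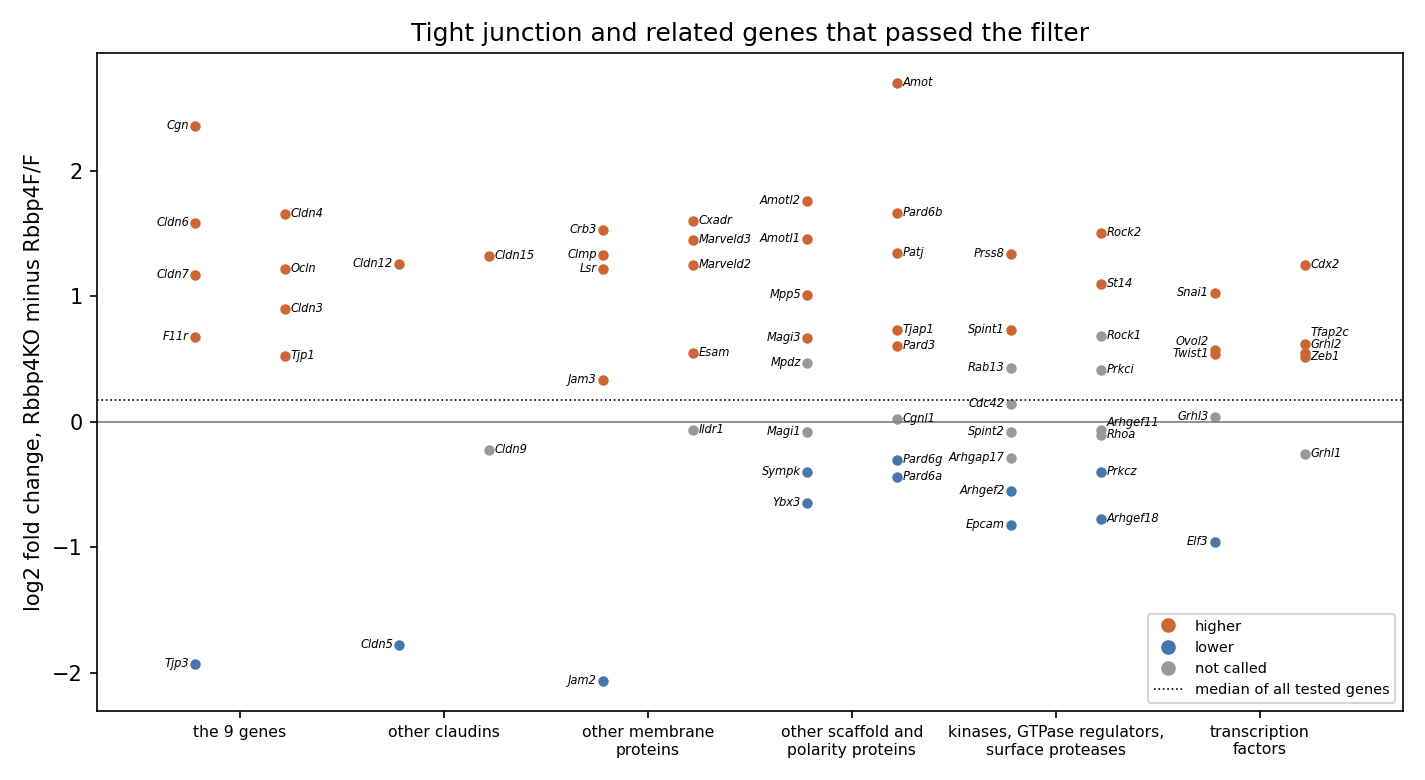
Log2 fold change of the 9 genes and of the other tested junction genes by list (2 of the 58 are not shown), with higher in orange, lower in blue and uncalled genes in grey; the sideways offset of points carries no meaning and the dotted line is the median of all tested genes (0.17). Cgn leads the 9 genes upward and Amot the scaffold list, and Tjp3, Cldn5 and Jam2 lie lowest in theirs.

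Of 17 tested kinases, GTPase regulators and surface proteases with their partners, 5 rose, 4 fell and 8 were not called, with a median of 0.14, close to the 0.17 of all tested genes, of which 36.7% rose and 22.5% fell. These counts depended on scaling. Among the 4 that fell, Prkcz lost its call with equal FPKM sums and without control replicate 1 or 2. Arhgap17, Rhoa and Spint2 were called lower with median-ratio and upper-quartile scaling, and Prkci and Rab13 higher with equal FPKM sums. Epcam, the gene of a surface glycoprotein that binds and stabilises claudins, had 207, 204 and 195 FPKM in Rbbp4F/F cells and 100, 121 and 122 FPKM in Rbbp4KO cells, a log2 fold change of −0.82 ± 0.09 (SE, adjusted p = 4.30e-04 by limma). Its groups did not overlap. The membrane protease gene St14, encoding matriptase, rose from 57.2 ± 1.96 to 124 ± 5.78 FPKM and Prss8, encoding prostasin, from 17.9 ± 0.380 to 46.8 ± 5.79 FPKM, with antisense exons of Kat8 over 6.6% of Prss8. Arhgef18, an activator of RhoA at junctions, fell from 34.2 ± 0.752 to 19.6 ± 0.675 FPKM, and Arhgef2, a junction-bound activator of the same GTPase, from 27.2 ± 3.11 to 18.2 ± 2.98 FPKM.

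The transcription factors listed as activators or repressors of claudin and occludin genes included members of both kinds among those that rose. Of 10 tested, 7 rose, 1 fell and 2 were not called, beside 36.7% higher and 22.5% lower among all tested genes. Cdx2, an activator of intestinal claudin genes and a trophectoderm factor, passed the filter through the knockout libraries alone, at 0.06 ± 0.06 and 1.52 ± 0.217 FPKM. Snai1, a repressor of epithelial junction genes, rose from 3.86 ± 0.391 to 8.89 ± 1.197 FPKM (difference of log2 values 1.02 ± 0.14 SE, adjusted p = 8.97e-04 by limma), and the AP-2 gene Tfap2c from 16.7 ± 1.00 to 26.1 ± 0.552 FPKM. Grhl2, which activates epithelial junction genes, had 8.20 ± 0.681 and 12.4 ± 1.11 FPKM, and upper-quartile scaling ended its call. The repressor gene Zeb1 and Twist1 lost theirs with median-ratio and upper-quartile scaling and without control replicate 1 or knockout replicate 3, and Zeb1 also without control replicate 3 or knockout replicate 2. Elf3, an epithelial ETS factor gene, fell from 30.4 ± 2.53 to 15.2 ± 0.469 FPKM, with a log2 fold change of −0.96 ± 0.09 (SE, adjusted p = 2.36e-04 by limma). Exons of Gm26642 on the other strand cover 7.3% of Elf3.

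Cldn3 and Cldn4 lie 39.3 kb apart on chromosome 5, on opposite strands. Both rose, while Mettl27, 2.5 kb from Cldn4 on the side away from Cldn3, fell from 10.1 to 5.92 FPKM (−0.70, limma adjusted p = 0.00724). Cldn6 and Cldn9 end 137 bases apart on chromosome 17, and Cldn9 was not called. On the other side of Cldn6, at 1.8 kb, Tnfrsf12a, a receptor gene of the TNF family, rose from 27.8 to 228 FPKM (2.99, limma adjusted p = 1.33e-05). Ocln and Marveld2 are 43.2 kb apart on chromosome 13, and both rose. Within 50 kb of the 9 genes, counted after the values were seen, 36 neighbour entries were tested, of which 15 were higher, 8 lower and 13 not called, beside 36.7% and 22.5% of all tested genes. Cldn3 and Cldn4 are each other's neighbours, but the 9 genes themselves were left out of this count.

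The profile over the 6 libraries most like that of Cgn, by Euclidean distance between centred log2(FPKM + 1) values, was that of Zyx, the gene of the actin-bound protein zyxin (distance 0.112). Scarf2 (0.115) and the keratin gene Krt19 (0.137) followed. Zyx had 29.3, 28.2 and 26.6 FPKM in Rbbp4F/F cells and 129, 152 and 148 FPKM in Rbbp4KO cells. Nearest to Cldn4 were Pard6b (0.115), Gpr4 (0.15) and Amotl2 (0.162), of which Pard6b and Amotl2 belong to the scaffold list above. These distances cover 2 groups of 3 libraries, so genes with a like difference between the groups come out near each other.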

How the data were processed

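Per the labels, Trizol was used for total RNA and the TruSeq RNA kit of Illumina for the libraries. The values the authors deposited were taken to be FPKM, since they are not whole numbers and sum to 697933 to 800146 per library. The submitters' processing notes list the tools HISAT2 2.1.0, DESeq 1.26.0, RSEM and FastQC with build GRCm38.p6 and give no roles. Whether counting used strand is not given in the sources used here. For that reason antisense exons are named for the genes described where they cover a larger share, though not for every gene. FPKM divides by each library's total, so when abundant transcripts fall the rest rise. 2 rows per file that name no gene were left out. Depth was estimated from the steps of low values (86.5% to 89.4% within 0.15 of a whole step).

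Values of all 6 libraries, grouped by title, were compared in R 4.3.3 with limma 3.58.1 (two-sided, group as the only term, empirical Bayes with a trend on the mean) on log2(FPKM + 1), which understates changes of low genes. The code was tested on simulated data. The median SD between replicates was 0.174 on the log2 scale. Alternatives were 4 scalings, a pseudocount of 0.1, no filter, a filter of 5 FPKM, the replicate number as a block, a 1.5-fold threshold inside the test and each library left out (at least 1 FPKM in 2 of the rest).

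Genes named are the 9 members, up to 3 called genes per list and direction with the smallest p, all claudins with a mean of at least 1 FPKM in a group, and the 3 nearest profiles of Cgn and Cldn4. Others, such as uncalled or scaling-dependent genes and neighbours, were picked once their values were known. Values of some genes that the rule takes are not reported here. The members and lists were chosen with earlier results of these data known. Promoters of all 9 members were matched in RefSeq.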

Additional observations from a re-analysis of the deposited data

How the results depend on the processing

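Over the 9 genes and 15 alternatives, 130 values kept their direction and their side of the threshold. The other 5 kept their direction but lost the call, 2 of them for Tjp1 with median-ratio and upper-quartile scaling and 3 with a 1.5-fold threshold inside the test (Cldn3, Tjp1 and F11r). Direction could not change under the other filters, the replicate block or this threshold, which leave the fold change itself as it was. That threshold left 5 of the 9 genes higher, and 17 higher and 3 lower of the 58 related genes, by its own construction. Of the related genes 7 instead of 11 were lower with equal FPKM sums and 7 of 63 tested without control replicate 1, and the cause was not tested. Over the libraries left out in turn, 29 to 37 related genes were higher and 7 to 13 lower, and the claudin ratio ran from 2.71 to 2.96. With median-ratio scaling that ratio was 2.48. With the replicate block 8 of the 9 genes were higher and 1 lower, and 32 related genes were higher and 10 lower, with the calls of Jam3 (limma adjusted p = 0.0953) and Pard6g (0.0697) lost and that of Rock1 gained (0.0489). Same-numbered libraries did not deviate together (r of −0.001, −0.009 and 0.049 over 13579 genes), so the numbers were not taken to pair them. The median of all tested genes moved from 0.17 to −0.005 (median-ratio), −0.07 (upper-quartile) and 0.31 (equal sums). At 0.0173 to 0.0197 FPKM per fragment on 2 kb, values near 0 such as those of Cldn15 in the controls rest on few fragments.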
